A study of Mus musculus with 24 samples.

Results

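The enzymes of Phase II conjugation were examined in the livers of mice that had eaten 1 of 3 high-fat diets. They were taken as the genes whose symbols begin with Ugt1a, Ugt2a, Ugt2b, Ugt3a, Sult or Gst followed by the letter of a cytosolic or mitochondrial class and a digit. Only probe sets annotated with a single gene were used, and a gene with several was represented by the probe set of highest mean. This gave 41 of the 18820 genes with such a probe set, of which 9 were UDP-glucuronosyltransferases (UGTs), 15 sulfotransferases (SULTs) and 17 glutathione S-transferases (GSTs). RNA from 24 livers was hybridised to Affymetrix whole-transcript arrays, 1 array per liver. The animals were male C57BL/6J mice aged 4 to 6 months, with no genetic modification named in the labels, and each diet was given to 8 mice for 7 weeks. All diets supplied 45% of energy as fat. The fat of the Trans diet was partially hydrogenated soy oil, that of the Cis diet canola oil with palm olein, and that of the Saturated diet cocoa butter. There was no low-fat group, so every value is relative to another high-fat diet, and oils differ in more than the shape of their fatty acids.

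Conjugation makes fat-soluble compounds soluble enough to be excreted in bile or urine. UGTs, which sit in the endoplasmic reticulum, transfer glucuronic acid from UDP-glucuronic acid, SULTs transfer a sulphate group from the donor PAPS in the cytosol, and GSTs join glutathione to reactive electrophiles. Their substrates in liver include steroids, bile acids, thyroid hormones, drugs and products of lipid peroxidation. Many of the genes respond to the transcription factors Nrf2 (Nfe2l2), CAR, PXR and the Ah receptor, and several differ between male and female mouse liver.

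A mean linear signal over 20 (4.32 on the log2 scale) was reached by 28 of the 41 genes, that is by 8 of 9 UGTs, 5 of 15 SULTs and 15 of 17 GSTs. Of the 13 others, Sult5a1 lay just under that limit with a mean of 4.30, and the other 12 had means of 1.15 to 3.58. Those were Ugt2b37, Sult1c1, the oestrogen sulfotransferase Sult1e1, Sult2a6, the cholesterol sulfotransferase Sult2b1, Sult3a1, Sult3a2, Sult4a1, Sult6b1, Sult6b2, Gsto2 and Gstt4. Array levels of different probe sets are not comparable, so genes are not ranked against each other. No UGT1A gene had a probe set of its own. The probe set that lists 8 UGT1A genes together differed by -0.03 between Trans and Saturated, -0.04 between Trans and Cis and 0.01 between Cis and Saturated on the log2 scale. A further limit is that paralogues of these families are close in sequence, so that a probe set annotated with 1 gene may also bind RNA of its neighbours, which was not tested. Xist was at 1.22 to 1.94 and the Y-linked Uty at 5.04 to 6.34 in the 24 livers, as in male tissue. Each array's median correlation with the others was between 0.975 and 0.986, lowest in Trans replicate 4. Markers of hepatocytes, 11 of 11 over a signal of 20, had summed signals of 41153 to 47397, whereas none of the 4 neutrophil markers and none of the 7 lymphocyte markers reached a mean of 20. In whole liver, fewer cells of a type and less RNA per cell cannot be told apart.

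To see whether the kind of dietary fat altered these genes, the 3 diets were compared in 1 linear model per probe set with limma, and p-values were adjusted over 35556 probe sets. No conjugation enzyme passed an adjusted p under 0.05. Between Trans and Saturated 0 of 41 were called, where the share over all probe sets was 0.00844%, and the smallest adjusted p of any of them was 0.564. The count was 0 of 41 between Trans and Cis (0.00281% of all probe sets, smallest adjusted p 0.704) and 0 of 41 between Cis and Saturated (0% of all probe sets, smallest adjusted p 0.684). The test for any difference among the 3 diets also called 0 of 41, beside 0.00281% of all probe sets. Because so few probe sets were called anywhere, the counts at an unadjusted p under 0.05 are given too. Between Trans and Saturated these were 2 of 41 (7.32% of all probe sets), with 0 higher (3.79%) and 2 lower in Trans (3.54%). Between Trans and Cis they were 4 of 41 (6.16%), with 1 higher (3.05%) and 3 lower in Trans (3.12%). Between Cis and Saturated there was 1 of 41 (6.57%), with 1 higher (3.3%) and 0 lower in Cis (3.27%).

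The intervals around these differences were narrow for most genes. The 95% interval lay within a 1.5-fold difference in either direction for 36 of 41 genes between Trans and Saturated, for 36 between Trans and Cis and for 40 between Cis and Saturated. The genes whose interval reached beyond 1.5-fold in some comparison were Gstm2, Gstm3, Gstp3, Gstt2, Gstt3 and Sult5a1. Among the 28 genes over a signal of 20, the interval lay within 1.5-fold for 24, 24 and 27 in the same order of comparisons. The median difference over the 41 genes was -0.02 between Trans and Saturated, -0.04 between Trans and Cis and 0.04 between Cis and Saturated on the log2 scale, beside 0.00 over all genes in each comparison. The mean was higher in Trans than in Saturated for 16 of 41, beside 51.6% of all genes. It was higher in Trans than in Cis for 13 (50.5%) and higher in Cis than in Saturated for 24 (51.4%). Of the 28 genes over a signal of 20, 11, 10 and 15 had the higher mean in these comparisons. For every one of the 41 genes the values of each pair of diets overlapped, which was not set against the share over all genes.

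**Figure D1:**
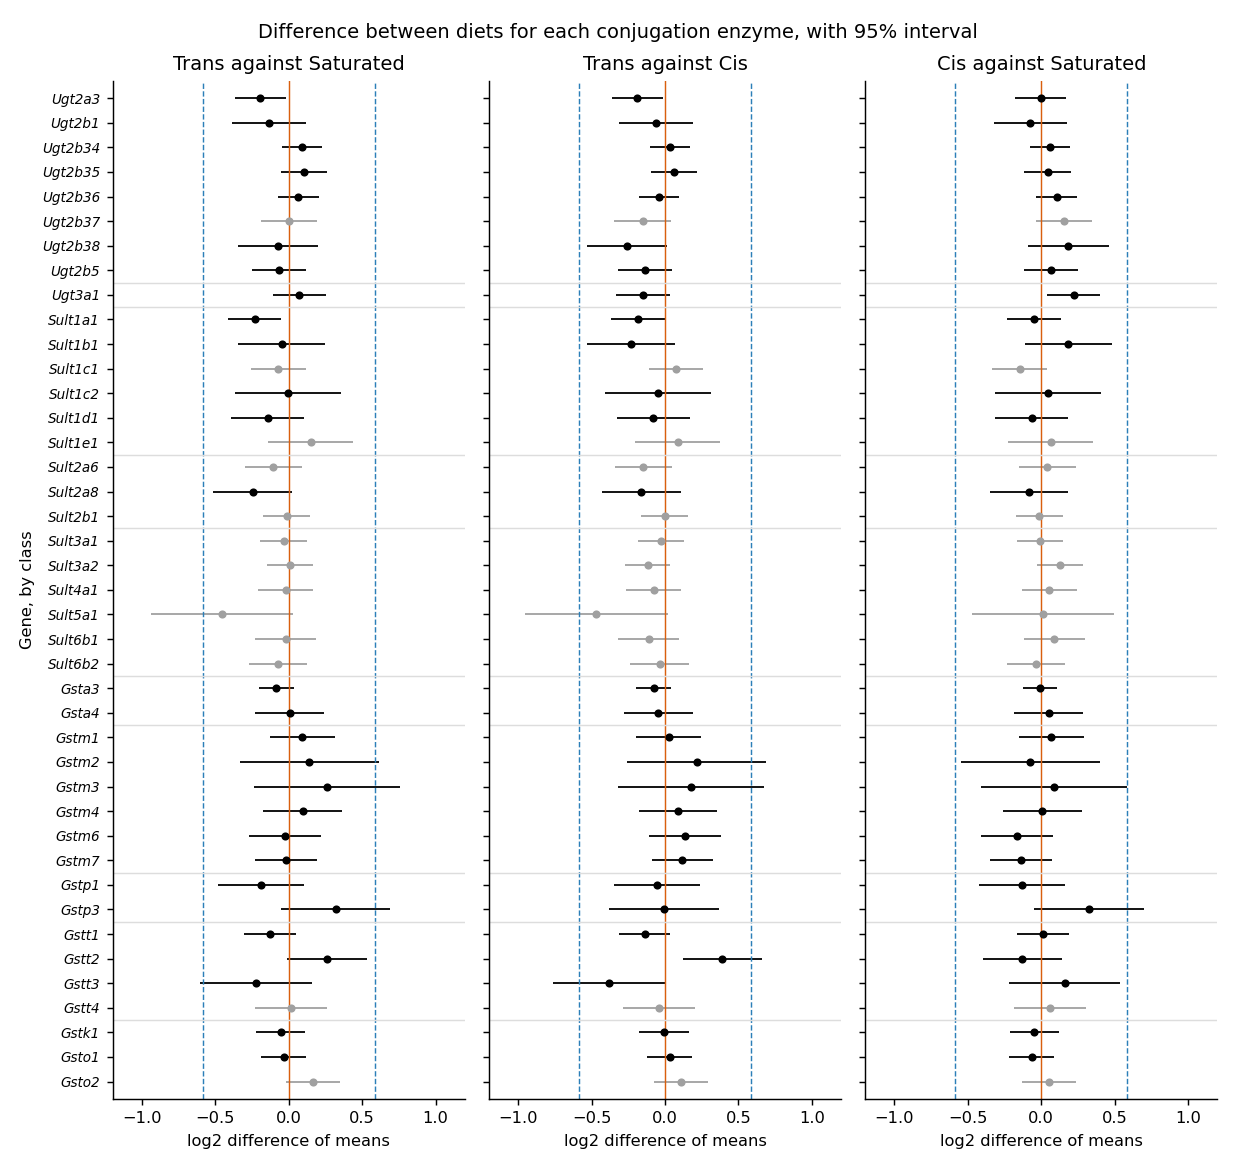
Difference of diet means on the log2 scale for each of the 41 conjugation enzymes (points) with its 95% interval (bars), in 3 comparisons. Genes are grouped by class, grey marks the 13 genes without a mean signal over 20, the solid line is no difference and the dashed lines are a 1.5-fold difference. Most intervals cross the solid line and stay between the dashed ones, and those of Gstm3, Sult5a1 and Gstm2 are the widest.

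Among the UGTs, which conjugate steroids, bile acids and drugs, Ugt2a3 had the lowest unadjusted p between Trans and each other diet. Its log2 values ran from 9.34 over a median of 9.59 to 9.83 in Trans, from 9.46 over 9.80 to 10.02 in Cis and from 9.52 over 9.78 to 10.06 in Saturated. Most Trans livers thus lay in the lower part of a shared range. Trans was lower than Saturated by a log2 difference of -0.19 ± 0.08 (SE), with 7 of 8 Trans livers under the Saturated mean (unadjusted p = 0.0299, limma adjusted p = 0.625). The difference from Cis was -0.19 ± 0.08 (unadjusted p = 0.0327, limma adjusted p = 0.802). Ugt3a1 differs from other UGTs in that it transfers N-acetylglucosamine, and it was the only gene of the 41 with an unadjusted p under 0.05 between Cis and Saturated. Its Cis livers had values of 9.44, 9.62 and 9.78 (lowest, median, highest), the Saturated livers of 9.16, 9.33 and 9.78, and the Trans livers of 9.22, 9.49 and 9.74. All 8 Cis livers lay above the Saturated mean, yet 1 Saturated liver was as high as the highest Cis liver. The difference was 0.22 ± 0.09 (unadjusted p = 0.0199, limma adjusted p = 0.684). Probe sets that list Ugt3a1 together with Ugt3a2 differed between Cis and Saturated by 0.17, 0.14 and 0.06 (limma unadjusted p = 0.0119, 0.0286 and 0.284, adjusted p = 0.642, 0.711 and 0.888).

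Of the other UGTs, Ugt2b34 had means of 10.59 ± 0.14 (SD) in Trans, 10.56 ± 0.12 in Cis and 10.50 ± 0.11 in Saturated. Ugt2b1 had means of 9.79 ± 0.27, 9.86 ± 0.25 and 9.93 ± 0.22 in the same order. In both the diets were closer together than the livers of 1 diet. Ugt2b38 showed a log2 difference of -0.26 ± 0.13 (SE) between Trans and Cis, with an interval from -0.53 to 0.01. The remaining UGTs over the signal limit differed less. Between Trans and Saturated the log2 difference was -0.07 for Ugt2b5, 0.10 for Ugt2b35 and 0.07 for Ugt2b36. Between Trans and Cis it was -0.14, 0.06 and -0.04. Over the UGT2A and UGT2B genes the mean was higher in Trans than in Saturated for 4 of 8, higher in Trans than in Cis for 2 of 8 and higher in Cis than in Saturated for 6 of 8.

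Among the SULTs, Sult1a1 conjugates simple phenols, including phenolic drugs. It was at 8.37, 8.69 and 8.95 (lowest, median, highest) in Trans, at 8.61, 8.93 and 9.03 in Cis and at 8.63, 8.89 and 9.27 in Saturated. The Trans livers were low as a group, but their highest exceeded most livers of the other diets. Trans was 1.18-fold lower than Saturated, a log2 difference of -0.23 ± 0.09 (SE) with an interval from -0.42 to -0.05 (unadjusted p = 0.0144, limma adjusted p = 0.564). It was 1.14-fold lower than Cis, a log2 difference of -0.18 ± 0.09 (unadjusted p = 0.0489, limma adjusted p = 0.802). Sult1d1, which accepts dopamine and other catecholamines, had means of 8.88 ± 0.22 (SD) in Trans, 8.96 ± 0.32 in Cis and 9.03 ± 0.17 in Saturated. Sult2a8, which sulphates bile acids in mouse liver, had 9.48, 10.22 and 10.54 in Trans, 9.88, 10.30 and 10.57 in Cis, and 10.09, 10.30 and 10.60 in Saturated. Its diet medians were close together while its lowest livers were in Trans. The log2 difference between Trans and Saturated was -0.25 ± 0.13 (SE), with an interval from -0.51 to 0.02. Sult1b1, which sulphates thyroid hormones, differed by -0.05 between Trans and Saturated and by -0.23 between Trans and Cis.

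Sult5a1, a sulfotransferase whose substrates are little known, had the widest range of the 41 probe sets used, 2.40 on the log2 scale or 5.29-fold. The second probe set of Gstm3, not used because its mean was lower, had a wider range of 3.15 or 8.90-fold. Sult5a1 lay at 3.04, 4.10 and 4.60 in Trans, at 3.97, 4.20 and 5.45 in Cis and at 3.71, 4.44 and 5.26 in Saturated. The lowest liver was Trans replicate 1 and the highest Cis replicate 7. Mean values differed by -0.45 ± 0.23 between Trans and Saturated (limma adjusted p = 0.706) and by -0.47 ± 0.23 between Trans and Cis (limma adjusted p = 0.802). Those were the largest differences of the family, with intervals that reached from -0.94 to 0.03 and from -0.95 to 0.02. None of the 12 other genes of low signal had an unadjusted p under 0.05 in any comparison.

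**Figure D2:**
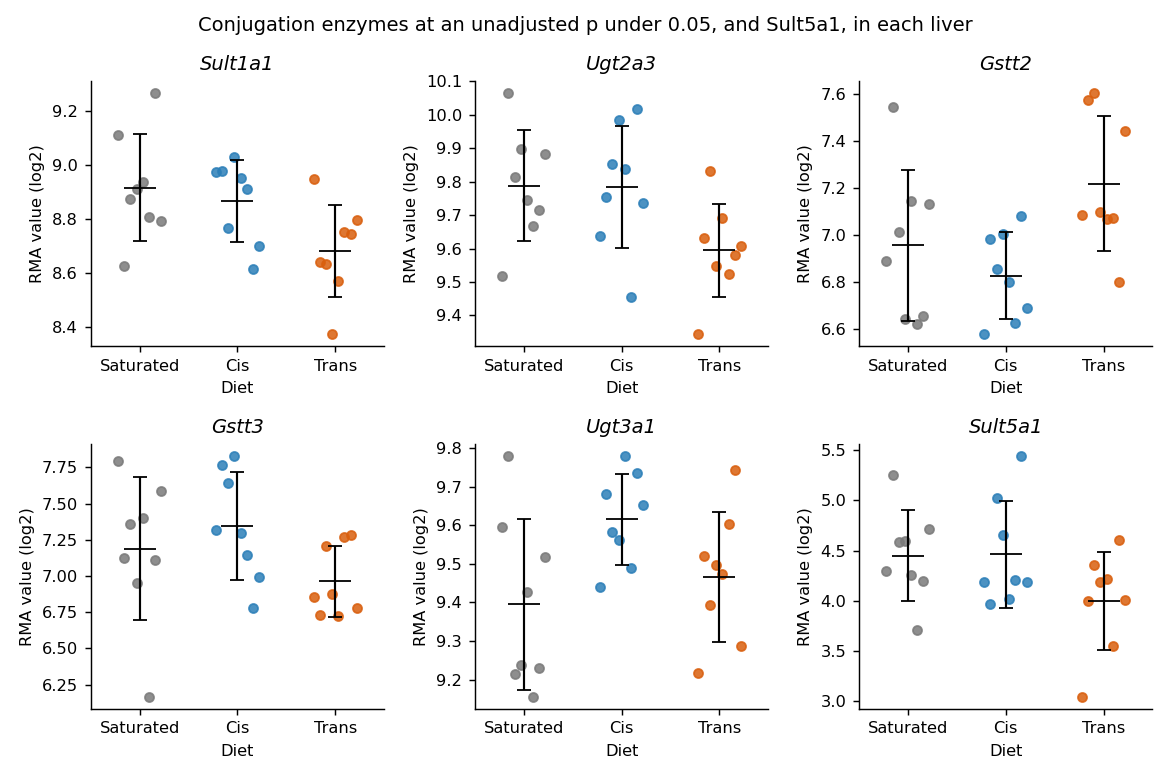
RMA values on the log2 scale in each liver (points) with the mean and SD of each diet (bars), 8 livers per diet, for the 5 genes with an unadjusted p under 0.05 in some comparison and for Sult5a1. Axes do not start at 0, and in every panel the diets overlap.

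The GST genes of the theta class, whose enzymes act on small halogenated compounds, included 2 of the 4 genes with an unadjusted p under 0.05 between Trans and Cis. Gstt2 was at 6.80, 7.09 and 7.61 in Trans, at 6.58, 6.83 and 7.08 in Cis and at 6.62, 6.95 and 7.55 in Saturated. Of the Trans livers 7 of 8 were above the Cis mean. The log2 difference between Trans and Cis was 0.39 ± 0.13 (SE) with an interval from 0.12 to 0.66 (unadjusted p = 0.0067, limma adjusted p = 0.704). Gstt3, in the same gene cluster, differed in the opposite sense. It was at 6.72, 6.86 and 7.28 in Trans, at 6.78, 7.31 and 7.83 in Cis and at 6.17, 7.24 and 7.80 in Saturated. All 8 Trans livers were under the Cis mean, a log2 difference of -0.38 ± 0.18 (unadjusted p = 0.0487, limma adjusted p = 0.802). Gstt1 had means of 9.60 ± 0.13 (SD), 9.74 ± 0.13 and 9.73 ± 0.22 in Trans, Cis and Saturated.

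In the alpha class, Gsta3, which detoxifies aflatoxin epoxide in mice, varied little. Its means were 11.27 ± 0.05 in Trans, 11.34 ± 0.13 in Cis and 11.35 ± 0.11 in Saturated. Gsta4, which clears aldehydes formed by lipid peroxidation, had means of 7.94 ± 0.17, 7.98 ± 0.26 and 7.93 ± 0.25. The Trans to Saturated difference of Gsta4 was 0.01 with an interval from -0.23 to 0.24. Gsta1 and Gsta2 share probe sets with each other and with predicted genes. The one of highest mean ran from 6.13 over a median of 7.16 to 7.80 in Trans, from 6.35 over 6.82 to 8.31 in Cis and from 5.78 over 6.64 to 7.53 in Saturated.

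In the mu class the diet means differed less than the livers within a diet. Gstm1 had means of 11.43 ± 0.17, 11.41 ± 0.25 and 11.34 ± 0.23 in Trans, Cis and Saturated. Gstm3 ran from 9.23 over a median of 9.80 to 10.90 in Trans, from 8.91 over 9.56 to 10.90 in Cis and from 8.99 over 9.58 to 10.27 in Saturated. Gstm2 ran from 7.57 over 7.92 to 8.81, from 6.86 over 7.76 to 8.56 and from 7.24 over 7.85 to 8.49 in the same order. Each diet spanned most of the range of Gstm2, and the 2 highest livers for Gstm3 were in different diets. The log2 difference between Trans and Saturated was 0.26 ± 0.24 (SE) for Gstm3 and 0.14 ± 0.23 for Gstm2. Their intervals were wide, from -0.24 to 0.76 and from -0.33 to 0.61. The same difference was 0.09 for Gstm4, -0.03 for Gstm6 and -0.02 for Gstm7. Over the 6 mu genes the mean was higher in Trans than in Saturated for 4 and higher in Trans than in Cis for 6, with a median difference of 0.09 and 0.13. Over all genes the share with the higher mean was 51.6% and 50.5%. The mu genes varied together between livers, with a median r of 0.74 over their 15 pairs, so the 6 are not independent observations.

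Of the remaining classes, Gstp1 had means of 10.64 ± 0.17 (SD), 10.70 ± 0.35 and 10.83 ± 0.33 in Trans, Cis and Saturated. Its paralogue Gstp3 was at 6.53, 6.68 and 7.49 in Trans, at 5.88, 6.77 and 7.41 in Cis and at 6.11, 6.48 and 6.99 in Saturated. All 8 Trans livers were over the Saturated mean of Gstp3, a log2 difference of 0.32 ± 0.18 (SE) with an interval from -0.05 to 0.69. Gstk1, found in mitochondria and peroxisomes, had means of 9.90 ± 0.09 (SD), 9.90 ± 0.15 and 9.95 ± 0.22. Gsto1, which reduces dehydroascorbate, had means of 7.23 ± 0.18, 7.20 ± 0.10 and 7.26 ± 0.14. The diets differed in neither by more than the spread between livers.

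The genes that act around conjugation gave the same counts, 0 called in any list and comparison. Of 16 measured genes for cofactor supply, 1 was higher in Trans than in Saturated and 1 was lower, each by an unadjusted p under 0.05. They were Gss, the last enzyme of glutathione synthesis (log2 difference 0.35, unadjusted p = 0.0133, limma adjusted p = 0.554), and Cth, which makes cysteine (-0.21, unadjusted p = 0.0491, limma adjusted p = 0.679). Of 12 export and uptake transporters 1 was higher and 1 lower. Abcc3, which exports glucuronides to blood, differed by 0.41 (unadjusted p = 0.000934, limma adjusted p = 0.311) and Slco1a1, an organic anion carrier, by -0.86 (unadjusted p = 0.0399, limma adjusted p = 0.654). Of 15 receptor targets outside the family, 10 of them over a signal of 20, 4 were higher and 1 lower. Their median difference was 0.34, beside 0.00 over all genes. Cyp1a2, an Ah receptor target, differed by -0.58 (unadjusted p = 0.000174, limma adjusted p = 0.202) and Vnn1, a PPAR alpha target, by 0.61 (unadjusted p = 0.000398, limma adjusted p = 0.254). Of 18 other conjugating and hydrolysing enzymes 0 were higher and 1 lower, As3mt, an arsenic methyltransferase (-0.29, unadjusted p = 0.0238, limma adjusted p = 0.622), and of 13 regulators 0 in either direction. Of 9 female-biased genes, 4 of them over a signal of 20, 2 were higher. Among these was Cyp2b9 with a log2 difference of 3.09 (unadjusted p = 0.00215, limma adjusted p = 0.374). The mean of male-biased genes was higher in Trans than in Saturated for 2 of 11, with a median of -0.24. Between Trans and Cis the lowest unadjusted p of the transporters was that of Slc22a7, another organic anion carrier, with a log2 difference of -1.07 (unadjusted p = 0.00118, limma adjusted p = 0.556). Between Cis and Saturated it was that of Abcc3 (0.32, unadjusted p = 0.00688, limma adjusted p = 0.638).

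How far each gene varied between livers was described by the SD within diets. Among the 28 genes over a signal of 20, the SD was above the 90th percentile of the 8298 genes over that signal for 5, namely Gstm3, Gstm2, Gstt3, Gstp3 and Sult1c2. The percentile was 98.0 for Gstm3 and 97.6 for Gstm2. The SD was below the 20th percentile for 3, namely Gsta3, Ugt2b34 and Ugt2b36, with 7.04 for Gsta3. The lowest and highest of 24 livers were 3.97-fold apart for Gstm3, 3.86-fold for Gstm2, 3.17-fold for Gstt3, 3.05-fold for Gstp3 and 2.87-fold for Sult1c2, but 1.32-fold for Gsta3. Sult1c2 lay at 5.00, 5.95 and 6.29 in Trans, 5.51, 5.75 and 6.52 in Cis and 5.39, 5.88 and 6.27 in Saturated. Gstm3 was highest in Cis replicate 6 and Trans replicate 1 and lowest in Cis replicate 7, which was also the lowest liver for Gstm2, Gstm7 and Gstp3.

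To see which of these genes varied together, each value was taken as its deviation from the mean of its diet, and correlations over the 24 livers were computed for the 378 pairs of the 28 genes. P-values came from 100000 permutations of livers within diets and were adjusted over the 378 pairs. A correlation r of at least 0.6 was found for 27 pairs (7.14%), beside 1.19% of all pairs of the 8298 genes, and one of -0.6 or less for 9 pairs (2.38%), beside 0.618%. An adjusted permutation p under 0.05 was found for 55 pairs, of which 41 were positive and 14 negative. The mu class held many of them, since 13 of its 15 pairs had r of at least 0.6, with a median of 0.74 and a range from 0.55 to 0.90. The same held for 3 of 28 pairs of UGTs and 0 of 10 pairs of SULTs.

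**Figure D3:**
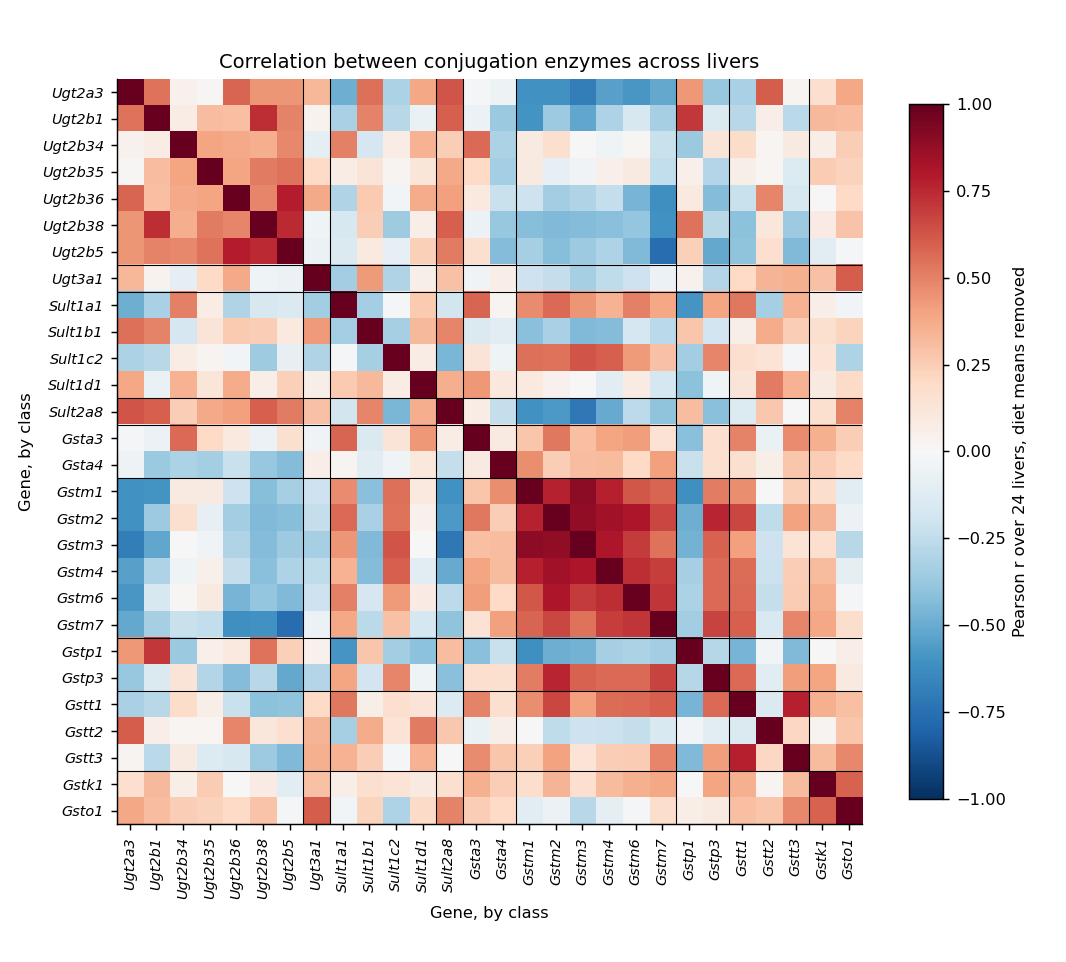
Pearson correlation over 24 livers, diet means removed, between each pair of the 28 conjugation enzymes with a mean signal over 20, with classes divided by lines. The 6 mu class genes form the darkest red block, and they are blue against Ugt2a3 and Sult2a8.

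The mu genes lie next to each other in the order Gstm5, Gstm7, Gstm6, Gstm3, Gstm2, Gstm1, Gstm4 in the RefSeq annotation. Their correlation was strongest between Gstm3 and Gstm1 (r = 0.90, permutation p = 1e-05, the smallest the permutations can give, adjusted p = 0.000756, Spearman rho = 0.89, permutation p = 2e-05). It was 0.92 within Trans, 0.96 within Cis and 0.83 within Saturated, and 0.88 without the 2 livers farthest from the median of Gstm1. Gstm3 and Gstm2 gave r = 0.89 and rho = 0.89 (permutation p = 1e-05 for each, adjusted p = 0.000756 for r), and 0.84 without the 2 livers farthest in Gstm2. The second probe set of Gstm3 followed the first with r = 0.97 and rho = 0.94 (permutation p = 1e-05 for each). The probe set shared by Gsta1 and Gsta2 followed Gstm3 with r = 0.72 (permutation p = 0.00012) and rho = 0.64 (permutation p = 0.0013), and with r = 0.57 without the 2 farthest livers. Paralogous probe sets that bind the same RNA would also vary together, and the probe sequences were not used here.

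Since the mu genes moved together, the starts of 3 of them are shown with that of Gsta3, which varied least between livers among the 28 genes. The sequences are the 250 bases before the RefSeq start in build GRCm38.p6, with capitals for a match on either strand to 1 of 3 motifs. The motifs were the antioxidant response element core TGACNNNGC, which Nrf2 binds, the Ah receptor core GCGTG and the HNF1 motif GTTAAT. Gstm3 (chr3:107969175-107969424), Gstm2 (chr3:107986421-107986670) and Gstm1 (chr3:108017974-108018223) are on the minus strand and Gsta3 (chr1:21240335-21240584) on the plus strand.
Gstm3: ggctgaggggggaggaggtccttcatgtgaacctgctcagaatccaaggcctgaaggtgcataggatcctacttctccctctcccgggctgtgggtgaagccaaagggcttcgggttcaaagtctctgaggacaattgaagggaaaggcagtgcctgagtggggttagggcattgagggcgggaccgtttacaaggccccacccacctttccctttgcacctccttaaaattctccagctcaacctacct
Gstm2: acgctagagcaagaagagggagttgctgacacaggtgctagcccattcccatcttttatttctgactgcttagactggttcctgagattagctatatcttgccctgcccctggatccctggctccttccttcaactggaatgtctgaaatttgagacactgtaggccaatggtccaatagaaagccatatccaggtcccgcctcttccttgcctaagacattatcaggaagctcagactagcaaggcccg
Gstm1: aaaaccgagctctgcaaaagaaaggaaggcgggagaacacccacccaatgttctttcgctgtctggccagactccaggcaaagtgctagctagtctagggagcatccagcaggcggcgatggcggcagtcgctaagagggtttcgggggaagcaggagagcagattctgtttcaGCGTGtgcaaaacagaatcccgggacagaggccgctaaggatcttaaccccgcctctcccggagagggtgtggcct
Gsta3: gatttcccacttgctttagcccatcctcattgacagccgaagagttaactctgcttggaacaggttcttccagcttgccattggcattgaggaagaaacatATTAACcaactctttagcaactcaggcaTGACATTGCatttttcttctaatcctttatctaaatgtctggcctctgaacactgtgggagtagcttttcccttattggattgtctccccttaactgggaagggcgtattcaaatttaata
The 3 mu genes held no antioxidant response element core in these windows, and only Gstm1 held a motif, a GCGTG that starts 76 bases before the start. Gsta3 held TGACATTGC 121 bases before its start and ATTAAC, the reverse complement of the HNF1 motif. Between the 3 mu genes the longest run shared by any pair was 10 bases. RefSeq windows of 300 bases, 250 before and 50 after the start, were matched for 38 of the 41 genes, 48 windows in all. The antioxidant response element core was in 2 of the 48 (4.17%), those of Gsta3 and Gstm7, beside 12.4% of all 32851 windows. GCGTG was in 8 (16.7%, beside 32.4%) and GTTAAT in 7 (14.6%, beside 7.1%), among them Ugt2a3, Ugt3a1, Sult1a1 and Sult1d1. A match to these letters is not evidence of binding, and more distant sequence was not searched.

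Livers with high mu class values had low values of some other conjugation enzymes. For Gstm3, r was -0.6 or less with 2 of them, Sult2a8 and Ugt2a3. Gstm3 and the bile acid sulfotransferase Sult2a8 gave r = -0.71 (permutation p = 0.00011, adjusted p = 0.00324) and rho = -0.65 (permutation p = 0.00073). The correlation was -0.85 within Trans, -0.74 within Cis and -0.54 within Saturated, and -0.52 without the 2 livers of highest Gstm3. Gstm3 and Ugt2a3 gave r = -0.69 (permutation p = 0.00059, adjusted p = 0.0112) and rho = -0.66 (permutation p = 0.00116), and r = -0.49 without those livers. Gstm7 and Ugt2b5 gave r = -0.76 (permutation p = 1e-05, adjusted p = 0.000756) and rho = -0.56 (permutation p = 0.00237). Without the 2 livers farthest in Gstm7, r was -0.59 for that pair.

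**Figure D4:**
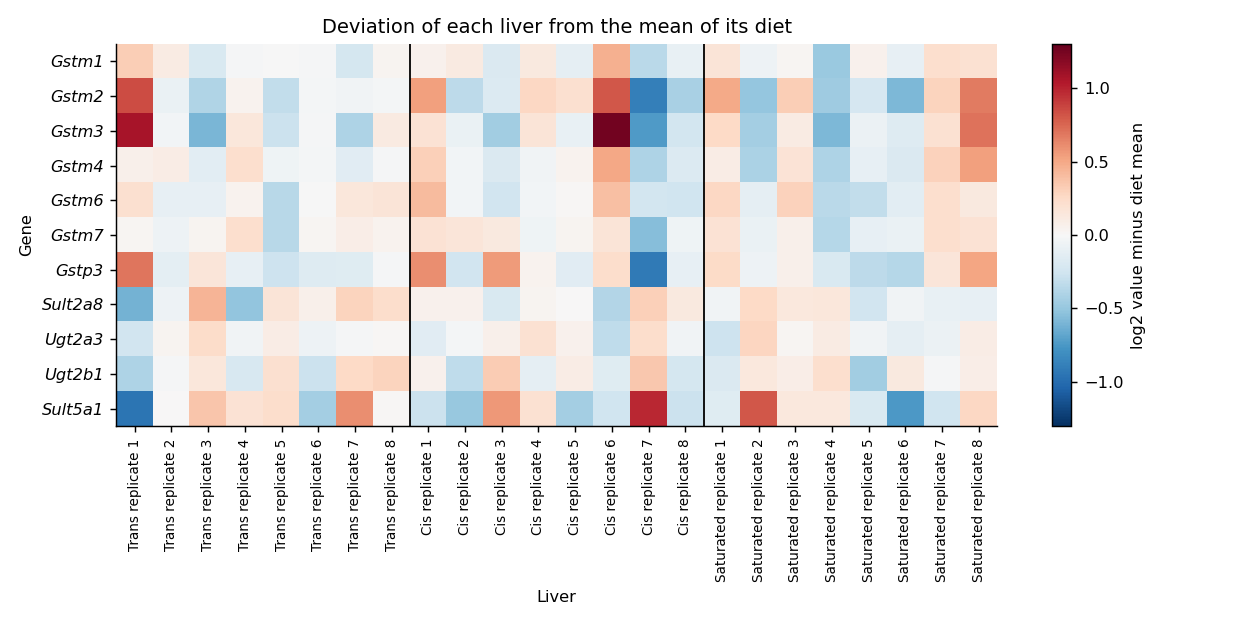
Deviation of the log2 value of 11 conjugation enzymes (rows) from the mean of the diet in each of 24 livers (columns, divided by diet). The mu genes and Gstp3 are mostly high together, as in Trans replicate 1 and Cis replicate 6, or low together, as in Cis replicate 7, where Sult2a8 and Ugt2a3 deviate the other way.

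Smaller groups outside the mu class also moved together. The neighbours Gstt1 and Gstt3 gave r = 0.78 (permutation p = 0.00012, adjusted p = 0.00324) and rho = 0.76 (permutation p = 7e-05), with 0.64, 0.60 and 0.91 within Trans, Cis and Saturated. Ugt2b36 and Ugt2b5 gave r = 0.78 (permutation p = 2e-05, adjusted p = 0.000945) and rho = 0.73 (permutation p = 0.00013). Within diets that correlation was 0.96 in Trans and 0.97 in Cis but 0.19 in Saturated, a difference that was not tested. Ugt2b1 and Ugt2b38 gave r = 0.73 (permutation p = 7e-05, adjusted p = 0.00265) and rho = 0.84 (permutation p = 1e-05), with 0.70, 0.79 and 0.86 within the diets. Ugt2b1 also varied with Gstp1, a gene of another family on another chromosome (r = 0.70, permutation p = 0.00012, adjusted p = 0.00324, rho = 0.68, permutation p = 0.00026). Gstp1 was inverse to Gstm1 (r = -0.61, permutation p = 0.00417, adjusted p = 0.0357, rho = -0.68, permutation p = 0.00053).

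Gstm3, the GST of widest range among the single-gene probe sets used, and Sult5a1 were then set against 75 genes over a signal of 20 from the lists of cofactor supply, other conjugation, transport, regulation, receptor targets and sex bias, 150 relations in all. The genes named here were chosen for the size of r after the values were seen. Gstm3 had r of at least 0.6 with 8 of the 75, beside 3.22% of all genes over that signal, and of -0.6 or less with 9, beside 1.48%. An adjusted permutation p under 0.05 was found for 23 of the 75, of which 11 were positive and 12 negative. The highest r was that of Srxn1, sulfiredoxin, an Nrf2 target (r = 0.87, permutation p = 1e-05, adjusted p = 0.000375, rho = 0.77, permutation p = 9e-05). It was 0.97 within Trans, 0.84 within Cis and 0.78 within Saturated, and 0.73 without the 2 livers of highest Gstm3. Nfe2l2, which encodes Nrf2, gave r = 0.86 (permutation p = 1e-05, adjusted p = 0.000375, rho = 0.79, permutation p = 3e-05) and 0.80 without those livers.

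Of 10 receptor targets 3 had r of at least 0.6 with Gstm3, namely Srxn1, the quinone reductase Nqo1 and the thioredoxin reductase Txnrd1. For Nqo1 r was 0.76 (permutation p = 5e-05, adjusted p = 0.0015, rho = 0.70, permutation p = 0.00023) and 0.66 without the 2 livers of highest Gstm3. Of 15 genes of cofactor supply 2 did, Ugdh, which makes UDP-glucuronic acid, and Ggct, which acts in glutathione breakdown. For Ugdh r was 0.80 (permutation p = 7e-05, adjusted p = 0.00171, rho = 0.74, permutation p = 0.00012) and 0.64 without those livers. Other genes of these lists followed Gstm3 less or not at all. Hmox1, another listed Nrf2 target, had r of 0.56 (permutation p = 0.00798, adjusted p = 0.0352). Gclc and Gclm, the subunits of the rate-limiting enzyme of glutathione synthesis, had r of 0.33 (permutation p = 0.125) and -0.21 (permutation p = 0.335).

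The genes with a male bias in mouse liver ran against Gstm3, with 10 of 11 negative and a median r of -0.58. Hsd3b5, a steroid reductase of male liver, gave r = -0.80 (permutation p = 1e-05, adjusted p = 0.000375, rho = -0.79, permutation p = 2e-05). It was -0.82 within Trans, -0.89 within Cis and -0.56 within Saturated, and -0.68 without the 2 livers of highest Gstm3. Those livers were also the 2 lowest for Hsd3b5, at 2.08 in Trans replicate 1 and 2.85 in Cis replicate 6, where the highest of the 24 was 9.26 in Cis replicate 7. Slco1a1 gave r = -0.74 (permutation p = 1e-05, adjusted p = 0.000375, rho = -0.75, permutation p = 3e-05). The 4 female-biased genes over the signal limit all had positive r, and for none of them did it reach 0.6.

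**Figure D5:**
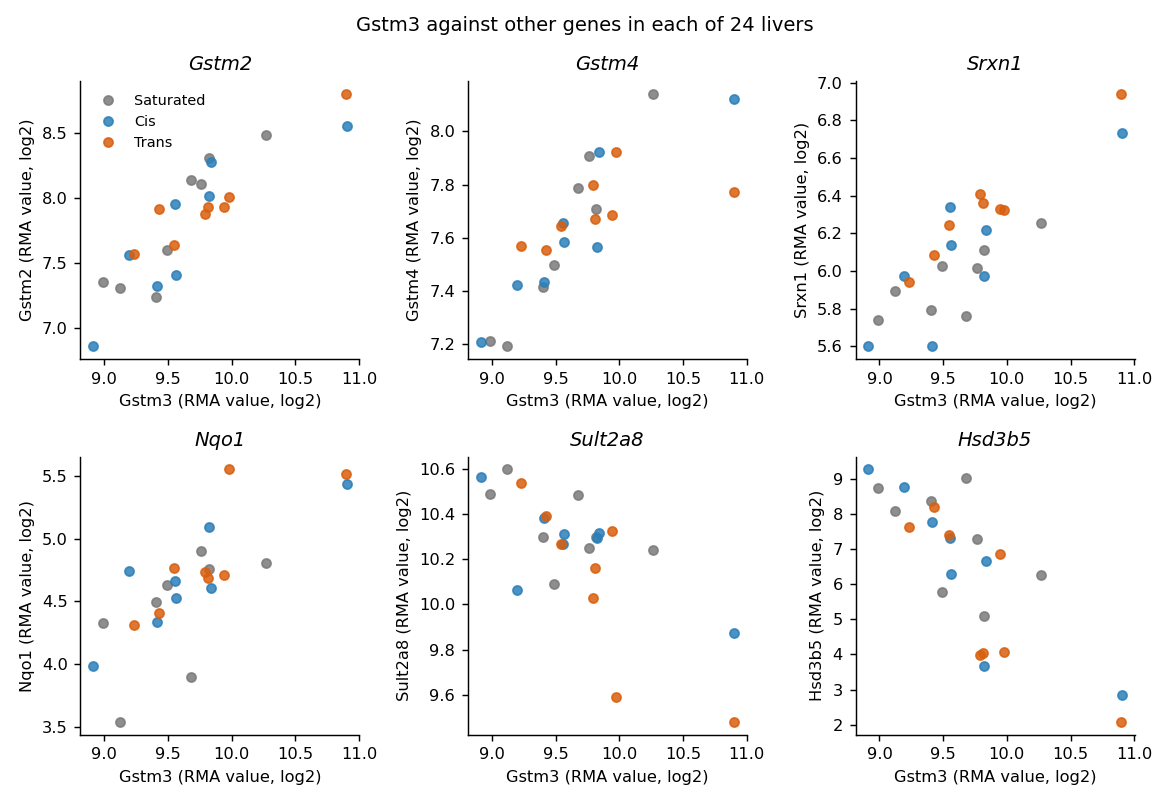
Log2 RMA value of Gstm3 (horizontal axes) against those of 6 genes (vertical axes) in 24 livers, coloured by diet. Values of Gstm2, Gstm4, Srxn1 and Nqo1 are high where Gstm3 is high, and those of Sult2a8 and Hsd3b5 are low there, among livers of every diet.

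The means of some marker lists of other cells varied with Gstm3 as well. Over the livers the mean of 7 stellate cell markers, 6 of them over a signal of 20, had r of 0.65 with Gstm3. The mean of 7 endothelial markers had r of 0.58, that of 5 markers of recruited macrophages, 1 of them over 20, of 0.71, and that of 4 neutrophil markers, none over 20, of 0.65. The 11 hepatocyte markers had r of -0.41 and the 6 Kupffer cell markers of 0.04. Means of smooth muscle, cholangiocyte and lymphocyte markers had r of 0.46, 0.03 and -0.20. Few single markers reached an r of 0.6 with Gstm3. They were 1 of 7 stellate cell, 1 of 7 endothelial, 2 of 5 recruited macrophage and 1 of 6 periportal hepatocyte markers, and 0 of 4 neutrophil markers. An r of -0.6 or less was found for 1 of 11 hepatocyte and 1 of 6 periportal hepatocyte markers. Over all genes over a signal of 20 the shares were 3.22% and 1.48%. These are descriptions over 24 livers that share arrays and normalisation, and their part in the correlations of Gstm3 was not tested. Summed stellate cell signal ran from 1155 to 1420 in Trans, 1090 to 1336 in Cis and 1140 to 1467 in Saturated. Gstm3 had r of 0.30 with the array median and of 0.23 with each array's median correlation to the others.

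Sult5a1 was positive with 9 of 11 male-biased genes, with a median r of 0.50. Slc22a7 gave r = 0.74 (permutation p = 0.00016, adjusted p = 0.003, rho = 0.71, permutation p = 0.0004), with 0.77, 0.66 and 0.83 within Trans, Cis and Saturated. An r of at least 0.6 was found with 5 of the 75 genes, beside 0.928% of all genes over the signal limit, and one of -0.6 or less with 2, beside 1.14%. The 5 genes of the 18819 others whose pattern was most like that of Sult5a1 were Selenoo, Kcnk7, Phlda1, Adtrp and Ces3b, with r from 0.76 to 0.79 over 24 livers. Selenoo encodes a mitochondrial selenoprotein and Ces3b a carboxylesterase, and Kcnk7 had a mean of 2.01, well under the signal limit. These 5 were picked as the highest of many, so their r is a description.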

How the data were processed

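RNA from 24 livers was measured on Affymetrix Mouse Gene 1.1 ST arrays. The authors processed the arrays with RMA (version not given in the sources used here), which corrects background, quantile-normalises arrays and gives 1 log2 value per probe set. The deposited log2 values, 0.309 to 13.5, were used without further scaling. Sources used here give no scan or plate batch. Of 35556 probe sets, 12457 had no listed gene, 1881 listed several and 21218 listed 1, giving 18820 genes.

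Groups followed the labels. Limma 3.58.1 in R 4.3.3 fitted the 3 diets together (lmFit, eBayes, 21 residual degrees of freedom), with Benjamini-Hochberg adjustment over all probe sets and calls at an adjusted p under 0.05. The number of arrays limits the precision. Fits and permutations were tested on simulated data. Correlations used Python 3.11.15 and scipy 1.17.1. Genes named with values were the 2 of highest mean in each class, the 8 of smallest unadjusted p in each comparison and the 6 of widest range, not all in full. The genes and lists were chosen with earlier results of these data known. Separate mice are the replicates, numbered in the labels. Residuals of livers with the same number correlated by 0.01 on average (-0.07 to 0.09, 24 pairs) and of different numbers by -0.00 (168 pairs). Livers of the same number were thus hardly more alike over all probe sets, and a pairing that touches few genes was not tested. Alternatives tried were normalisation, variance model, array weights, filters, the methods' Tukey test, membership and leaving out livers.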

Additional observations from a re-analysis of the deposited data

Results flagged for a closer look

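In 14 of 123 groups, each of 1 gene in 1 diet, the highest or lowest liver stood apart from the other 7 of its diet by Dixon's criterion, which chance alone meets in about 1 in 20 groups. Of these values 8 came from 3 livers. Trans replicate 1 was the highest of its diet for Gstm2 at 8.81 (next 8.01), for Gstm3 at 10.9 (next 9.98), for Gstp3 at 7.49 (next 6.95) and for Sult1e1 at 2.73 (next 1.74). Cis replicate 7 was the lowest of its diet for Gstm7 at 7.53 (next 8.02) and the highest for Ugt2b5 at 10.01 (next 9.71). Trans replicate 4 was the lowest for Ugt2b34 at 10.28 (next 10.51) and the highest for Sult3a2 at 1.62 (next 1.28).

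Of the other 6, Gstm3 was highest in Cis replicate 6 at 10.9 (next 9.84). Gstm1 was lowest in Saturated replicate 4 at 10.86 (next 11.23), where Ugt2b5 was highest at 9.85 (next 9.63). Sult1d1 was lowest in Saturated replicate 6 at 8.65 (next 8.97). Sult3a1 was highest in Saturated replicate 5 at 1.502 (next 1.2) and Sult4a1 in Cis replicate 5 at 2.42 (next 1.93). Sult1e1, Sult3a1, Sult3a2 and Sult4a1 were under the signal limit of 20.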

How the results depend on the processing

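No conjugation enzyme was called under any alternative run, which were 37 for each comparison of diets and 34 for the test over the 3 diets, and the smallest adjusted p of any enzyme under any of them was 0.341 between Trans and Saturated, 0.516 between Trans and Cis, 0.448 between Cis and Saturated and 0.427 for the test over the 3 diets. The count at an unadjusted p under 0.05 moved more, from 2 to between 1 and 6 for Trans against Saturated, from 4 to between 1 and 6 for Trans against Cis (6 without Trans replicate 7) and from 1 to between 1 and 3 for Cis against Saturated. Single livers that moved these counts by over 1.5 times were, for Trans against Saturated, Trans replicates 3 and 7 (4 and 5 without them), Cis replicate 7 (4) and Saturated replicates 4, 5 and 6 (1, 4 and 5). For Trans against Cis they were Cis replicate 4 (1 without it) and Trans replicates 1 and 2, Cis replicates 1, 3 and 5 and Saturated replicates 3, 4 and 5 (2 without each). For Cis against Saturated they were Cis replicate 7 and Saturated replicates 4 and 8 (2 without each). With the replicate number as a block the counts called stayed at 0 in every test, and those at an unadjusted p under 0.05 were 6, 3 and 2. Livers of the same number were hardly more alike than others over all probe sets. For 12 gene pairs, correlations were recomputed under alternatives chosen after seeing the data (quantile normalisation again, median centring, the second probe set of Gstm3, and leaving out each liver), and none changed direction. That of Gstm3 with Gstm2 stayed between 0.86 and 0.90, with Srxn1 between 0.79 and 0.90, and with Sult2a8 between -0.78 and -0.61. Arrays report relative signal after quantile normalisation, so a shift shared by most genes would not be seen.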
